A study of Canis lupus familiaris with 14 samples.

Results

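The 5 annotated genes described here, 3 at the globin loci and 2 elsewhere, were abundant in RNA from the whole blood of dogs. Whole-blood RNA was sequenced in 14 canine samples, 7 labelled lymphoma and 7 labelled non-lymphoma. The 5 genes belong to a table of 30951 genes, and all 5 were among the 12836 genes that passed the filter on low counts. They were chosen by position, after their abundance and co-abundance in these same libraries had been seen. Their levels and their correlations are therefore given as a description. Lymphoma is a cancer of lymphocytes; those samples carry the condition label disease, and the non-lymphoma samples carry the label control, with a design text that speaks of disease other than lymphoma. The labels give no breed, age, sex, treatment, lymphoma type or blood cell counts, and they do not say that each sample is a separate dog, so the p-values speak only of the spread among these libraries.

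Hemoglobin is the oxygen carrier of red blood cells and is built from alpha-type and beta-type globin chains, which are encoded by separate gene clusters on different chromosomes. Circulating mammalian red cells have no nucleus, and the youngest of them, the reticulocytes, still carry globin mRNA, so whole-blood RNA that is not depleted of globin transcripts is usually rich in it. Balanced supply of the 2 chain types is a textbook requirement of red-cell formation.

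The first gene of the group (ENSCAFG00000032615) lies at the alpha-globin locus, on the minus strand of chromosome 6 from 40235272 to 40329010 in the CanFam3.1 assembly. Its 2918 exon bases fall in 6 blocks, of which a block of 34 bases at 40235272 stands far from the other blocks, which run from 40322784 to 40329010. The gene spans 93739 bases and overlaps 3 other annotated genes without sharing an exon base with them. The minus-strand gene of the beta-globin locus (ENSCAFG00000030286) lies on chromosome 21 from 28178124 to 28206005 and has 3398 exon bases in 14 blocks, 4 of which are each 223 bases long. Whether this annotated gene covers a single globin gene or merges several could not be checked, so its counts may stand for several. The plus-strand gene of the same locus (ENSCAFG00000029568) runs from 28181549 to 28182932, inside the span of the minus-strand gene, and has 537 exon bases in 3 blocks. Of these, 321 bases, or 59.8%, also belong to exons of the minus-strand gene, which leaves 216 bases of its own. The minus-strand gene shares 755 exon bases, or 22.2%, with 3 overlapping genes.

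The other two genes lie outside the globin loci as annotated. The chromosome 2 gene lies on the minus strand from 71474954 to 71584266 and has 4253 exon bases in 24 blocks. The second chromosome 6 gene (ENSCAFG00000032180) lies on the minus strand from 40119447 to 40123662, has 2263 exon bases in 5 blocks, and ends 111.61 kb before the lowest position of the alpha-locus gene. Neither shares an exon base with another annotated gene. The count table carries Ensembl gene identifiers without symbols, and 0 of the 30951 identifiers matched the reference gene table used here, so the label of globin and red-cell genes could be checked by position alone. In that table, of the assembly UU_Cfam_GSD_1.0, HBQ1 and HBM are on chromosome 6 and HBE1 on chromosome 21. The 2 assemblies' positions were not set against each other. The red-cell character of the chromosome 2 gene and the second chromosome 6 gene was not tested, and both are called by their position.

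Total counts ran from 9845059 to 14831589 per lymphoma library and from 13522628 to 21610927 per non-lymphoma library. Mitochondrial genes took 21.0 ± 3.20% and 19.0 ± 7.69% of counts (SD, n = 7 each). After each library was thinned to 9845059 counts, 16492 ± 994 genes were detected in lymphoma and 19858 ± 2160 in non-lymphoma (SD, n = 7 each). The sample descriptions are plain 5-digit numbers in 2 lymphoma libraries, replicates 5 and 6, and in all 7 non-lymphoma libraries, and take other forms in the other 5 lymphoma libraries. The labels do not say what these forms stand for. Comparisons were therefore repeated within the 9 libraries with 5-digit descriptions, where lymphoma is represented by 2 libraries only.

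Together the 5 genes took from 7.46% to 25.4% of all counts in a lymphoma library and from 3.46% to 16.7% in a non-lymphoma library. The means were 14.1 ± 6.60% and 10.4 ± 4.51% (SD, n = 7 each), and the groups overlapped. In blood as a whole, fewer cells of a type and less RNA per cell cannot be told apart. Lymphoma replicates 7 and 2 held the highest sums, 25.4% and 19.6%, and non-lymphoma replicate 7 the lowest, 3.46%. Within the libraries with 5-digit descriptions the difference of means turned from 3.77 to -2.07 percentage points. Without lymphoma replicate 7 it was 1.90 points, and with counts taken as a percent of the TMM-scaled library size it was 7.30 points. The alpha-locus gene and the minus-strand beta-locus gene made up 90.6 ± 1.34% of the sum in lymphoma and 90.2 ± 1.50% in non-lymphoma (SD, n = 7 each). The plus-strand beta-locus gene made up 1.17 ± 0.887% of the sum in lymphoma and 4.27 ± 1.08% in non-lymphoma, without overlap between the groups. How many of all genes would separate on that measure was not counted. In ratio to the minus-strand beta-locus gene, 7.79% of all tested genes did not overlap between the groups. As a share of all counts, the plus-strand gene did overlap between them.

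The alpha-locus gene took 3.48, 1.59, 3.89, 8.73, 1.93, 2.67 and 9.40% of counts in lymphoma replicates 1 to 7. In non-lymphoma replicates 1 to 7 it took 6.61, 6.99, 4.03, 8.01, 11.6, 4.45 and 2.29%. The groups overlapped over most of their range: lymphoma replicates 4 and 7 stood with the high non-lymphoma libraries and the other 5 lymphoma libraries lay below the non-lymphoma median. Means were 4.53 ± 3.21% and 6.28 ± 3.06% (SD, n = 7 each). In a fit over all 12836 genes with edgeR's quasi-likelihood test, the log2 fold change between lymphoma and non-lymphoma was -0.18 (standard error 0.53, Benjamini-Hochberg adjusted p = 0.839), with a 95% interval from -1.21 to 0.85. It was -1.28 within the libraries with 5-digit descriptions (adjusted p = 0.413, edgeR). By counts it ranked between 2 and 6 of all genes in lymphoma libraries and between 1 and 3 in non-lymphoma libraries.

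The minus-strand beta-locus gene took 8.14, 16.1, 3.96, 5.93, 4.67, 5.60 and 13.8% of counts in lymphoma replicates 1 to 7. In non-lymphoma replicates 1 to 7 it took 3.69, 3.99, 2.15, 4.86, 3.55, 2.57 and 0.837%. All 7 lymphoma libraries lay above the non-lymphoma median and 5 lay above every non-lymphoma library, while lymphoma replicates 3 and 5 fell within the non-lymphoma range. Means were 8.31 ± 4.76% and 3.09 ± 1.34% (SD, n = 7 each). By edgeR's quasi-likelihood test it was higher in lymphoma by a log2 fold change of 1.82 (standard error 0.55, adjusted p = 0.0347), a 3.53-fold difference. Leaving out any 1 of 7 libraries took the adjusted p above 0.05 (lymphoma replicates 2 and 7 and non-lymphoma replicates 1, 3, 5, 6 and 7), with adjusted p up to 0.0789 and a log2 fold change of 1.45 at the lowest, without lymphoma replicate 2. Within the libraries with 5-digit descriptions the log2 fold change was 0.89 (adjusted p = 0.511, edgeR).

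The plus-strand beta-locus gene had a lower mean share in lymphoma, as the alpha-locus gene did. It took 0.0689, 0.424, 0.236, 0.0907, 0.0492, 0.0966 and 0.136% of counts in lymphoma replicates 1 to 7. In non-lymphoma replicates 1 to 7 it took 0.584, 0.498, 0.325, 0.400, 0.585, 0.483 and 0.124%. By share, all 7 lymphoma libraries lay below the non-lymphoma median and 4 lay below every non-lymphoma library. Lymphoma replicate 2 was high and non-lymphoma replicate 7 low, so the groups overlapped. On the log2 CPM scale of the fit, 6 lymphoma libraries lay below the non-lymphoma median. On that scale lymphoma replicate 2, at 12.63, lay above every non-lymphoma library, of which the highest was 12.49. Means were 0.157 ± 0.133% and 0.428 ± 0.164% (SD, n = 7 each). The log2 fold change was -1.03 (standard error 0.52) and did not pass edgeR's quasi-likelihood test (adjusted p = 0.173). Without lymphoma replicate 2 it was -1.72 with an adjusted p of 0.0230 in the same test, and within the libraries with 5-digit descriptions it was -2.36 (adjusted p = 0.129, edgeR). This gene ranked between 11 and 176 by counts in lymphoma libraries and between 5 and 78 in non-lymphoma libraries.

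The chromosome 2 gene ranged from 0.294 to 1.32% of counts in lymphoma (median 0.397%) and from 0.134 to 0.507% in non-lymphoma (median 0.265%). Lymphoma replicate 7 held the highest value, lymphoma replicates 2 and 4 followed with 0.707 and 0.698%, and the other 4 lymphoma libraries lay within the non-lymphoma range. Its log2 fold change was 1.45 (standard error 0.47, adjusted p = 0.0437, edgeR's quasi-likelihood test), and all 7 lymphoma libraries had a log2 CPM above the median of the other group. That call was lost when any 1 of 9 libraries was left out (lymphoma replicates 2, 4 and 7 and every non-lymphoma replicate but 5), and the log2 fold change without lymphoma replicate 7 was 0.95 (adjusted p = 0.104, edgeR). It was 0.35 within the libraries with 5-digit descriptions (adjusted p = 0.736, edgeR).

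The second chromosome 6 gene had the narrowest range of the 5 in lymphoma, as highest over lowest share. It took 0.486, 0.766, 0.396, 0.567, 0.520, 0.400 and 0.775% of counts in lymphoma replicates 1 to 7 and 0.317, 0.365, 0.177, 0.281, 0.445, 0.228 and 0.0789% in non-lymphoma replicates 1 to 7. Only non-lymphoma replicate 5 reached above the lowest lymphoma libraries, replicates 3 and 6. Its log2 fold change was 1.37 (standard error 0.40, adjusted p = 0.0291, edgeR's quasi-likelihood test), and all 7 lymphoma libraries exceeded the median of the non-lymphoma group. The call was lost without lymphoma replicate 2, lymphoma replicate 7 or non-lymphoma replicate 6 (adjusted p up to 0.0634, edgeR), and within the libraries with 5-digit descriptions the log2 fold change was 0.90 (adjusted p = 0.421, edgeR).

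**Figure D1:**
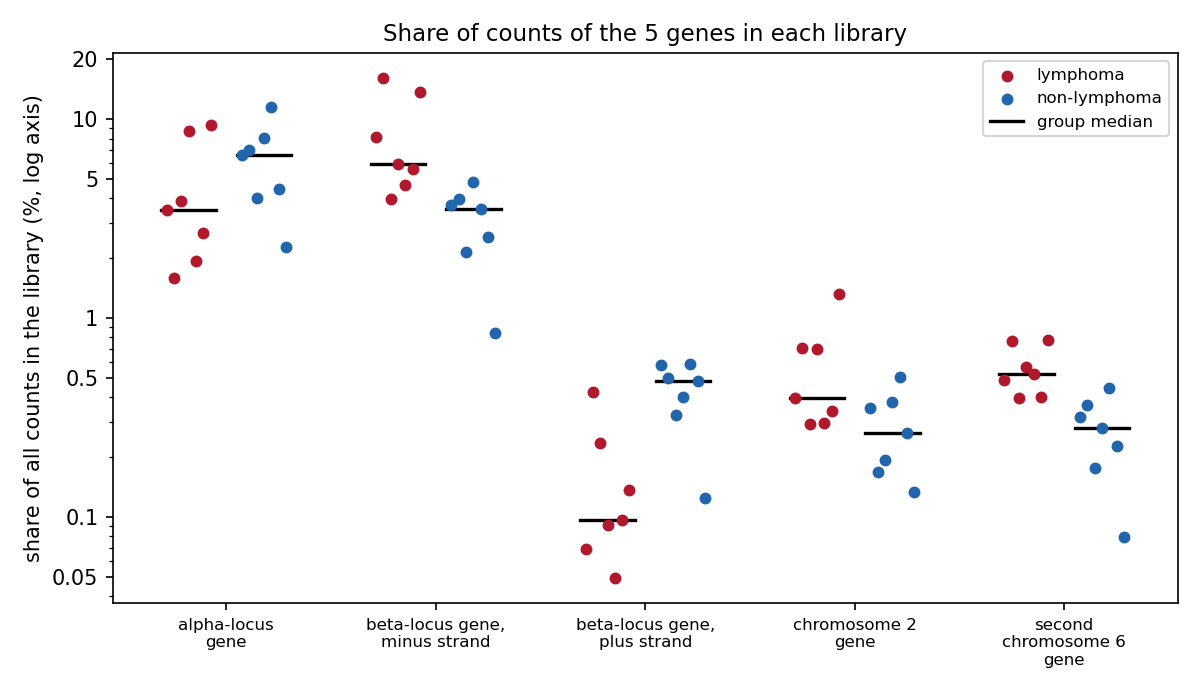
Share of all counts in a library (percent, log axis) of each of the 5 genes, with 1 point per library, lymphoma in red and non-lymphoma in blue, and a black line at the group median. The minus-strand beta-locus gene lies higher in lymphoma and the plus-strand gene lower, while the alpha-locus gene spans 1.59 to 9.40% in lymphoma and 2.29 to 11.6% in non-lymphoma.

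In all, 3 of the 5 genes were called higher in lymphoma and 0 lower by edgeR's quasi-likelihood test, where 9.21% of all 12836 tested genes were called higher and 7.4% lower. At an unadjusted p under 0.05 the counts were also 3 and 0, where 17.3% of all tested genes were higher and 17.3% lower. DESeq2 called 3 and 0 after adjustment, against 13.3% of all tested genes higher and 11.5% lower. The median log2 fold change was 1.37 over the 5 genes and -0.05 over all tested genes. On the log2 CPM scale of the fit, 0 of the 5 separated the groups without overlap, against 3.78% of all tested genes. Compared per kilobase of exon, the minus-strand beta-locus gene had the highest mean level in lymphoma, 24460 CPM per kb against 15508 for the alpha-locus gene, and in non-lymphoma the order of the means was the other way round, 9103 against 21524. The spread was wide in both groups, with SDs of 14003 and 10998 in lymphoma and 3936 and 10478 in non-lymphoma (n = 7 each). For the plus-strand gene the mean levels per kilobase were 2931 and 7975, over exon bases of which most also belong to the minus-strand gene. All exon bases entered these levels, while reads over bases shared between genes go uncounted by the counting program's defaults. The levels of both beta-locus genes may therefore be understated. The lower levels belonged to the second chromosome 6 gene, with 2469 in lymphoma and 1194 in non-lymphoma, and to the chromosome 2 gene, with 1362 and 672.

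Ratios between genes of the same library do not depend on its depth, and 6 of the 10 between these genes separated the groups without overlap. They are ratios of counts, not of levels per length or of globin chains. Reads with several alignments or over several genes go uncounted by the counting program's defaults, and their part in these ratios was not tested. The minus-strand beta-locus gene had 2.34, 10.2, 1.02, 0.679, 2.43, 2.10 and 1.46 counts for each count of the alpha-locus gene in lymphoma replicates 1 to 7. In non-lymphoma replicates 1 to 7 the ratio was 0.559, 0.571, 0.534, 0.606, 0.306, 0.577 and 0.366. Every lymphoma library lay above every non-lymphoma library, and the ratio varied 15.0-fold within lymphoma and 1.98-fold within non-lymphoma. The mean log2 ratio differed by 2.02 (standard error 0.49), a 4.06-fold difference. A two-sided exact permutation test over the 3432 assignments of the labels gave p = 0.000583, the smallest it can give, and 0.000972 after Benjamini-Hochberg adjustment over the 10 ratios between the 5 genes. Within the libraries with 5-digit descriptions the difference was 2.21 (exact permutation p = 0.0278, the smallest that 36 assignments can give). Groups that do not overlap over all libraries cannot overlap in a subset of them. The lack of overlap and the p within that subset therefore add no support. Over all tested genes, the ratio to the alpha-locus gene left the groups without overlap for 0.67%.

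**Figure D2:**
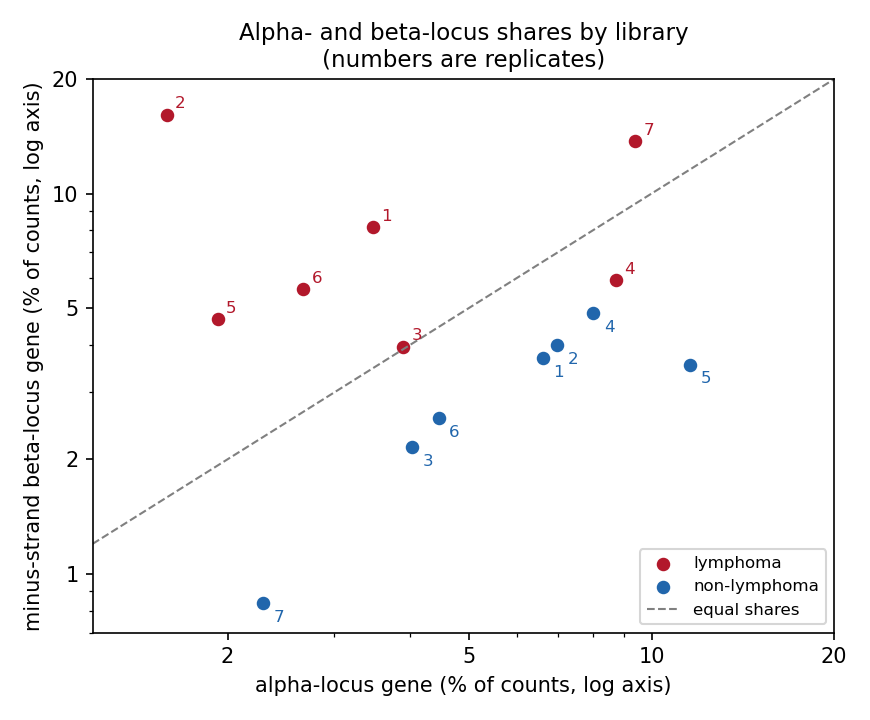
Share of counts of the minus-strand beta-locus gene against that of the alpha-locus gene (percent, both axes log) in each library, numbered by replicate, lymphoma in red and non-lymphoma in blue; the dashed line marks equal shares. The 7 non-lymphoma points follow a band below the line, with ratios of 0.306 to 0.606, and the lymphoma points scatter above that band with ratios of 0.679 to 10.2.

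The other 2 genes behaved like the minus-strand beta-locus gene when set against the alpha-locus gene. For the second chromosome 6 gene the ratio to the alpha-locus gene ran from 0.0650 to 0.482 in lymphoma (median 0.140) and from 0.0345 to 0.0523 in non-lymphoma (median 0.0439), a 3.44-fold difference (log2 difference 1.78, standard error 0.39). For the chromosome 2 gene it ran from 0.0755 to 0.446 in lymphoma (median 0.128) and from 0.0240 to 0.0594 in non-lymphoma (median 0.0482), a 2.94-fold difference (log2 difference 1.56, standard error 0.36). Neither ratio overlapped between the groups, and both gave an adjusted exact permutation p of 0.000972. Against the minus-strand beta-locus gene the same 2 genes overlapped between the groups. The log2 difference was -0.24 for the second chromosome 6 gene (standard error 0.22, adjusted exact permutation p = 0.322) and -0.47 for the chromosome 2 gene (standard error 0.31, adjusted exact permutation p = 0.191), and 0.23 for the ratio of the second chromosome 6 gene to the chromosome 2 gene (standard error 0.30, adjusted exact permutation p = 0.453). Without non-lymphoma replicate 2 the chromosome 2 gene's difference from the minus-strand gene was -0.66 and passed, with an adjusted exact permutation p of 0.0433. These p-values above 0.05 do not show that the genes moved alike.

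The largest of the 10 ratio differences lay within the beta-globin locus. For each count of the minus-strand gene, the plus-strand gene had 0.00846 to 0.0596 counts in lymphoma (median 0.0153) and 0.0823 to 0.188 in non-lymphoma (median 0.151). All 7 lymphoma libraries lay below all 7 non-lymphoma libraries, by 8.45-fold on the log2 mean (log2 difference -3.08, standard error 0.40, adjusted exact permutation p = 0.000972). Within the libraries with 5-digit descriptions the log2 difference was -3.39. Of all tested genes, 7.79% had a ratio to the minus-strand gene that did not overlap between the groups. Per the file headers, no option for strand, for reads that overlap several genes or for reads with several alignments was set, and by the counting program's defaults such reads go uncounted and strand is ignored. Reads over the exon bases common to both genes, or over sequence that globin copies share, are therefore not attributed to either, and the split of counts between the 2 genes is uncertain in every library.

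Against the plus-strand gene, the other ratios also separated the groups. The second chromosome 6 gene had a ratio of 1.68 to 10.6 across lymphoma libraries and of 0.471 to 0.761 across non-lymphoma libraries, a 7.16-fold difference. For the chromosome 2 gene the ratio was 1.24 to 9.73 in lymphoma and 0.337 to 1.08 in non-lymphoma, a 6.11-fold difference. Both gave an adjusted exact permutation p of 0.000972, and 2.27% of all tested genes had a ratio to the plus-strand gene without overlap. The ratio of the plus-strand beta-locus gene to the alpha-locus gene overlapped between the groups, with 0.0104 to 0.267 in lymphoma and 0.0499 to 0.108 in non-lymphoma (log2 difference -1.06, standard error 0.62, adjusted exact permutation p = 0.161). Lymphoma replicate 2 held the highest value of that ratio, and without it the log2 difference was -1.56 (adjusted exact permutation p = 0.00416). Of the 10 ratios, 6 passed the test, and these were the 6 that did not overlap between the groups. Each of the 6 set a gene called higher in lymphoma against the alpha-locus gene or the plus-strand gene. The 10 ratios are formed from the same 5 genes, so they are not independent results.

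**Figure D3:**
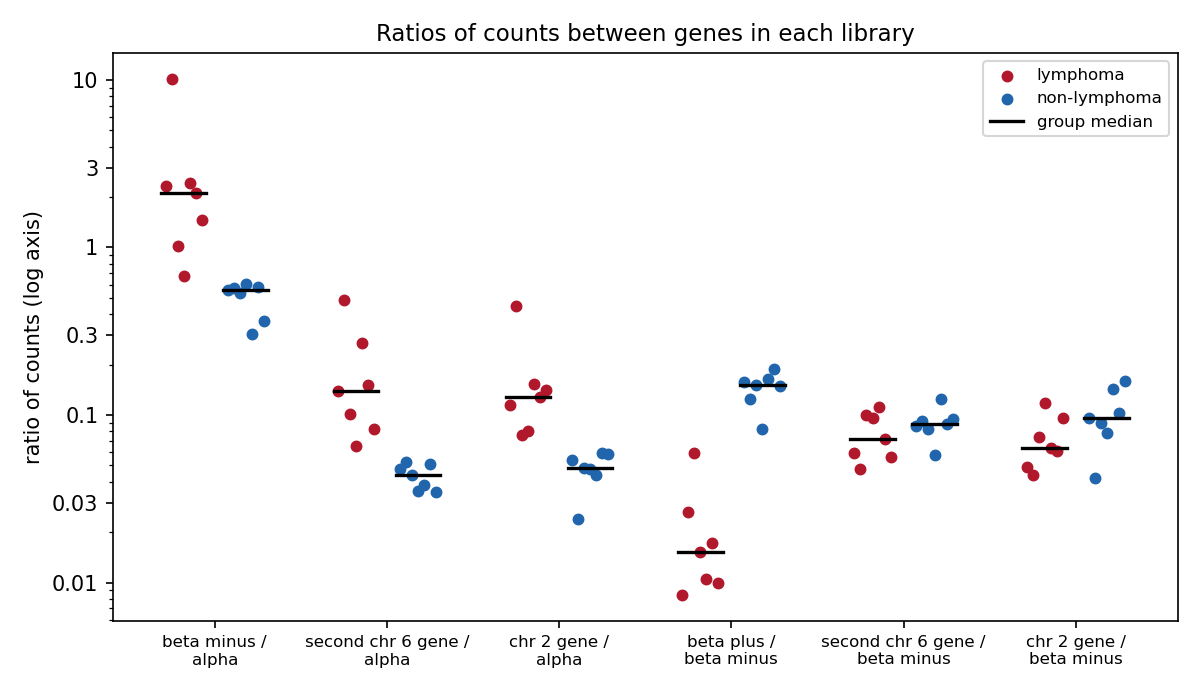
Ratio of counts between pairs of the genes (log axis) in each library, lymphoma in red and non-lymphoma in blue, with a black line at the group median. The 3 ratios to the alpha-locus gene and the ratio of the plus-strand to the minus-strand beta-locus gene do not overlap between the groups, and the 2 ratios of the non-globin-locus genes to the minus-strand beta-locus gene do.

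Over the 14 libraries together 3 of the 5 genes moved closely with each other, and the alpha-locus gene and the plus-strand beta-locus gene less so. Pearson's r of log2 CPM over the 14 libraries was 0.96 between the minus-strand beta-locus gene and the second chromosome 6 gene, 0.88 between the minus-strand beta-locus gene and the chromosome 2 gene, and 0.87 between the chromosome 2 gene and the second chromosome 6 gene. With the alpha-locus gene, r was 0.25 for the minus-strand beta-locus gene, 0.31 for the second chromosome 6 gene, 0.45 for the chromosome 2 gene and 0.40 for the plus-strand beta-locus gene. Single libraries moved these values: without lymphoma replicate 2 they were 0.52, 0.52, 0.67 and 0.56, the first was 0.0073 and the third 0.18 without lymphoma replicate 7, the second was 0.084 without non-lymphoma replicate 7 and the fourth 0.25 without lymphoma replicate 5. The plus-strand gene had r between 0.02 and 0.06 with the other 3 over all 14 libraries, in which the groups' means lay apart in opposite directions, and r of 0.67, 0.56 and 0.64 within lymphoma with the minus-strand gene, the chromosome 2 gene and the second chromosome 6 gene. Spearman's rho for the same pairs was 0.93, 0.75 and 0.80 among the 3 genes that moved together and 0.06 between the alpha-locus and minus-strand beta-locus genes. These pairs share library, depth and the differences between the groups, and the members were chosen on their pattern, so no p is given.

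Within the non-lymphoma group alone all 10 pairs had r of 0.71 or more, and the alpha-locus gene had r of 0.91 with the minus-strand beta-locus gene, 0.85 with the plus-strand gene, 0.83 with the chromosome 2 gene and 0.96 with the second chromosome 6 gene. Non-lymphoma replicate 7 was low for all 5 genes, and without it the alpha-locus gene had r of 0.76, 0.62, 0.63 and 0.91 with the same 4. Also without it, r fell from 0.90 to 0.44 between the minus-strand and plus-strand beta-locus genes. For the chromosome 2 gene it fell from 0.72 to 0.23 with the minus-strand gene, from 0.71 to 0.12 with the plus-strand gene and from 0.75 to 0.35 with the second chromosome 6 gene. The second chromosome 6 gene kept r of 0.73 with the minus-strand gene and 0.87 with the plus-strand gene. Within lymphoma the 4 values of the alpha-locus gene were 0.30, 0.11, 0.68 and 0.38. The value of 0.30 between the alpha-locus and minus-strand beta-locus genes ranged from -0.22 to 0.73 as single lymphoma libraries were left out. Among the minus-strand beta-locus gene, the chromosome 2 gene and the second chromosome 6 gene the 3 pairs had r of 0.89 to 0.94 in lymphoma. Whether r differed between the groups was not tested.

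**Figure D4:**
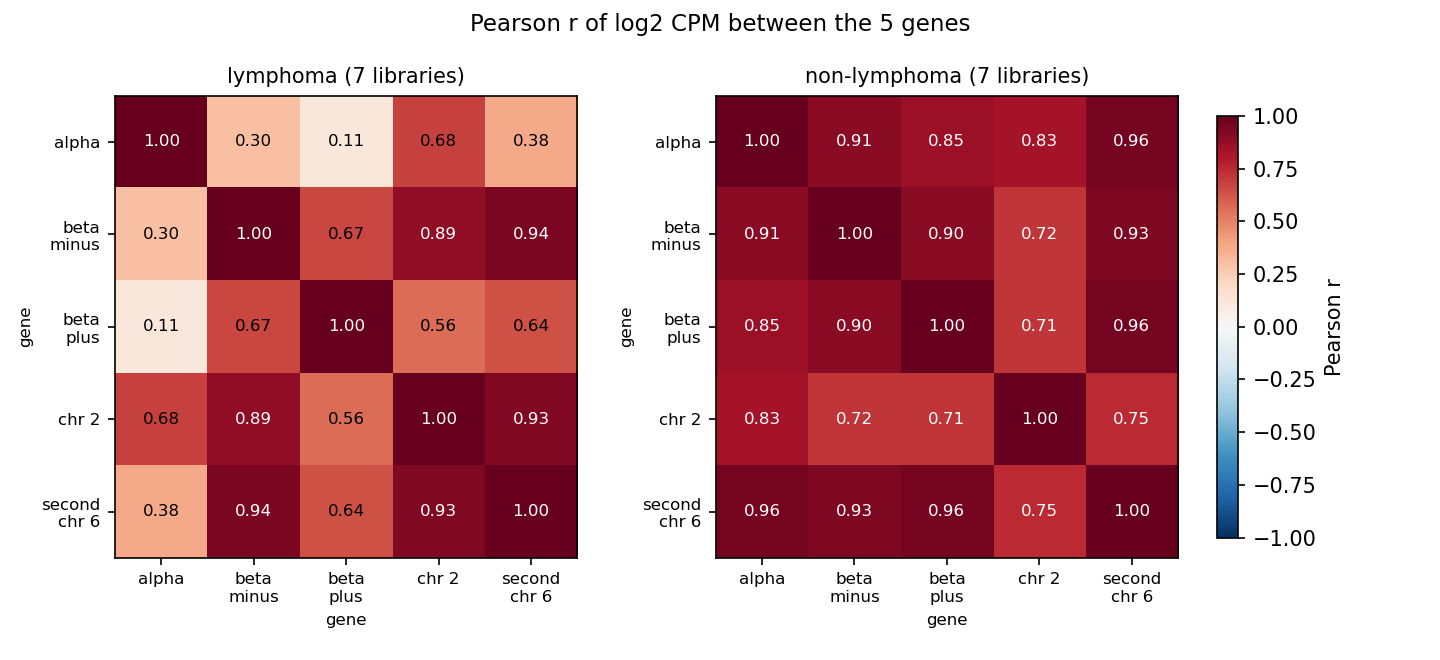
Pearson's r of log2 CPM for each pair of the 5 genes over the 7 lymphoma libraries (left) and the 7 non-lymphoma libraries (right), on a colour scale from -1 to 1. The alpha-locus gene has r of 0.11 to 0.68 with the other genes in lymphoma and 0.83 to 0.96 in non-lymphoma.

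Other tested genes with an average log2 CPM of at least 1 numbered 11270. Of these, 4 had a higher r with the minus-strand beta-locus gene than the second chromosome 6 gene had, and 185 than the chromosome 2 gene had. Both genes were chosen with their co-abundance in these libraries known, so their ranks are a description and no support for the choice. With the alpha-locus gene, 621 of the 11270 had a higher r than the chromosome 2 gene and 1702 than the second chromosome 6 gene. With the plus-strand beta-locus gene, 4984 had a higher r than the chromosome 2 gene (r = 0.06). The second chromosome 6 gene (r = 0.02) was exceeded by 5350. The gene whose log2 CPM was most like that of the minus-strand beta-locus gene over the 14 libraries lay on chromosome 23 from 45708417 to 45987175, with r of 0.96. It was singled out after its values were seen, and it was higher in lymphoma by a log2 fold change of 1.41 (standard error 0.37, adjusted p = 0.0188, edgeR's quasi-likelihood test).

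Against the mean log2 CPM of the 3 globin-locus genes, the 8 genes with the highest r over the 14 libraries had r of 0.83 to 0.94. The most alike lay on chromosome 5 from 75230243 to 75240730 (r = 0.94), followed by a gene on chromosome 6 from 25740765 to 25758489 (r = 0.89). The third, also with r of 0.89, lay on chromosome 6 from 40330773 to 40332207, which is 1.763 kb beyond the end of the alpha-locus gene. Its share of counts was 0.0730 ± 0.0291% for lymphoma and 0.116 ± 0.0585% for non-lymphoma (SD, n = 7 each), with a log2 fold change of -0.33 (adjusted p = 0.605, edgeR). The fifth, on chromosome 20 from 39889174 to 39890260, had r of 0.86 and was of like abundance, with 0.0924 ± 0.0400% and 0.0976 ± 0.0412% of counts (SD, n = 7 each). The other 4 started at 250684 of the unplaced scaffold JH373243.1 and on chromosomes 33, 6 and 10 at 28655631, 590410 and 16816319. By edgeR's quasi-likelihood test, 0 of the 8 passed, with adjusted p of 0.582 to 0.913, beside 9.21% of all tested genes called higher and 7.4% lower. At an unadjusted p under 0.05, 0 passed by edgeR, DESeq2 or limma voom, beside 17.3% higher and 17.3% lower by edgeR. The 8 were chosen to follow a mean of genes with log2 fold changes of -0.18, 1.82 and -1.03. That choice made calls unlikely, so the count is a description and no result about these genes. Of the genes described here, the chromosome 2 gene had r of 0.67 with this mean and the second chromosome 6 gene 0.64. Among the 11270 other genes compared, 158 and 224 had a higher r with this mean, in the same order. The 3 genes that form the mean did not follow it much more closely. The alpha-locus gene had r of 0.73, the minus-strand beta-locus gene 0.66 and the plus-strand gene 0.71. Respectively, 76, 179 and 95 of the other genes had a higher r than these 3.

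Within 200 kb of the 5 genes lay 63 other annotated genes, of which 30 were tested, 0 were called higher and 4 lower by edgeR's quasi-likelihood test, beside 9.21% and 7.4% of all tested genes. At an unadjusted p under 0.05 the counts were 1 higher and 12 lower, beside 17.3% and 17.3% of all tested genes. DESeq2 called 0 higher and 9 lower after adjustment, beside 13.3% and 11.5% of all tested genes. The 4 called by edgeR lay on chromosome 6 before the second chromosome 6 gene and started at 40021805 (log2 fold change -0.80, adjusted p = 0.0112), 39901062 (-0.64, adjusted p = 0.0293), 39939004 (-1.22, adjusted p = 0.0342) and 39934068 (-1.91, adjusted p = 0.0454, all by edgeR). The 24 tested genes of that region had a median log2 fold change of -0.52. At the beta-globin locus 22 of the 24 neighbouring genes had fewer than 10 counts over all 14 libraries. The 2 that could be tested lie within the span of the minus-strand gene on the opposite strand, and neither passed (adjusted p = 0.182 and 0.135, edgeR). Around the chromosome 2 gene 4 of 6 neighbours were tested, with log2 fold changes from -0.59 to 0.08 and 0 called by edgeR, also at an unadjusted p under 0.05.

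**Figure D5:**
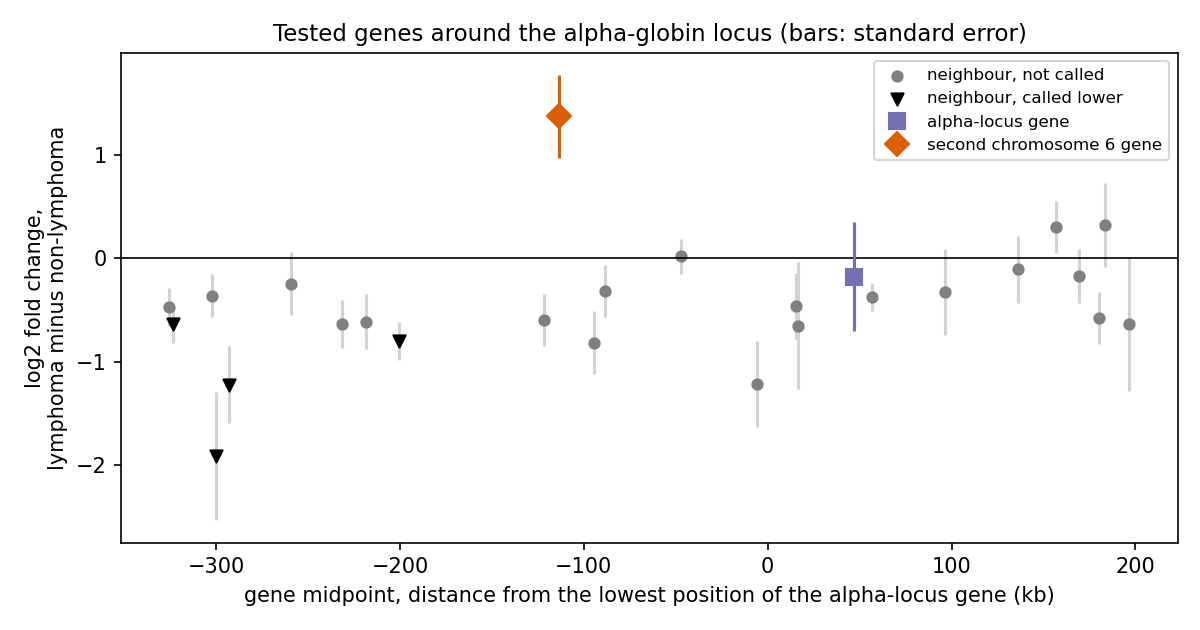
Log2 fold change between lymphoma and non-lymphoma (edgeR, bars show the standard error) of tested genes around the alpha-globin locus, against the distance of the gene's midpoint from the lowest position of the alpha-locus gene in kb. The second chromosome 6 gene stands at 1.37, and the 4 neighbours called lower, drawn as triangles, lie between -0.64 and -1.91.

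The share of the 2 most abundant genes was set against total counts, thinned genes detected and the mitochondrial share in each group and over all libraries, 18 relations in all. The thinned counts included those of these 2 genes, so a larger share left fewer draws for all other genes. Share and genes detected are thus tied in part by construction, which the permutation p-values do not allow for. The minus-strand beta-locus gene was higher where fewer genes were detected after thinning: within lymphoma, r was -0.88 (exact permutation p = 0.00317, adjusted p = 0.0285) and rho -0.86 (exact permutation p = 0.0238, adjusted p = 0.143), and r was -0.81 without the 2 libraries farthest from the median number of genes. Within non-lymphoma r was -0.59 (exact permutation p = 0.163, adjusted p = 0.734) and -0.05 without the 2 farthest libraries. Over all 14 libraries r was -0.73 (permutation p = 0.00266, adjusted p = 0.0285) and rho -0.85 (permutation p = 0.00024, adjusted p = 0.00432). The gene's share also fell with total counts over all 14 libraries (r = -0.68, permutation p = 0.00589, adjusted p = 0.0353). Within lymphoma r was -0.54 (exact permutation p = 0.219) and within non-lymphoma -0.39 (exact permutation p = 0.389). The permutations over 14 libraries did not keep the groups apart, so their p-values also carry the difference between the groups. In total counts, and in genes detected, 6 non-lymphoma libraries lay above every lymphoma library. In the gene's share, 5 lymphoma libraries lay above every non-lymphoma library. None of the 9 relations of the alpha-locus gene passed (lowest permutation p = 0.271). The part of depth and of genes detected in the group difference of the minus-strand gene was not tested.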

How the data were processed

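Per the labels' protocols, blood RNA was extracted with Trizol, chloroform and isopropanol and made into Illumina libraries. Per the submitters' processing notes, HISAT2 2.2.1 and Subread 2.0.1 were used with CanFam3.1. Per the file headers, the deposited counts are fragments per gene over exons of Ensembl release 103, counted in paired mode. Totals of 9845059 to 21610927 counts per library limit precision only for rare genes. The members and the list of tests were chosen with earlier results of these data known. Shares are percent of counts computed from the deposited counts. All genes kept by filterByExpr were fitted with edgeR 4.0.16 in R 4.3.3 (TMM factors, quasi-likelihood test, group only, Benjamini-Hochberg over 12836 genes), which was tested on simulated data. Log2 CPM used a prior count of 2. Ratios and single relations used exact permutation tests, or 100000 permutations for correlations over 14 libraries, in SciPy 1.17.1 (Python 3.11.15). Named genes were the 5 members, neighbours within 200 kb that passed an adjusted p of 0.05, and the 8 genes most like the globin-locus mean; 1 chromosome 23 gene was added after its values were seen. Alternatives covered other normalizations, filters, DESeq2 1.42.0, limma 3.58.1, a replicate block, subsets of libraries and other denominators. No row without a gene name was present.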

Additional observations from a re-analysis of the deposited data

Results flagged for a closer look

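Among 32 groups of 7 values (shares and log2 ratios of the members by group), 4 had a highest or lowest library set apart by more of the group's range than Dixon's limit for 7 samples, where chance gives about 1.6. The chromosome 2 gene took 1.32% of counts in lymphoma replicate 7, where the next library had 0.707%, a gap of 0.599 of the group's range. The log2 ratio of the chromosome 2 gene to the alpha-locus gene was -1.17 in lymphoma replicate 2, next to -2.71, a gap of 0.601 of the range. In non-lymphoma replicate 2 the same log2 ratio was lowest, -5.38 next to -4.51, a gap of 0.662. That library also had the highest log2 ratio of the second chromosome 6 gene to the chromosome 2 gene, 1.12 next to -0.13, a gap of 0.668.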

How the results depend on the processing

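With no filter on low counts the log2 fold changes were 1.74 for the minus-strand beta-locus gene (adjusted p = 0.0907), 1.38 for the chromosome 2 gene (0.0632) and 1.29 for the second chromosome 6 gene (0.0529), so that 0 of the 5 genes were called higher by edgeR, and 3 at an unadjusted p under 0.05. Within the libraries with 5-digit descriptions they were 0.89, 0.35 and 0.90, again with 0 called, also at an unadjusted p under 0.05, and the difference in summed share was -2.07 percentage points. By limma voom the chromosome 2 gene reached 1.24 (adjusted p = 0.0618). Same-numbered libraries did not vary together (1 of 7 correlations above 0.1), so the numbers were not taken as pairs. With the replicate block the 3 log2 fold changes were 1.54, 1.10 and 1.34, with 0 genes called higher by edgeR and 2 at an unadjusted p under 0.05. All 6 ratios that passed did so in a sign-flip test of differences between same-numbered libraries (adjusted p = 0.0260). Those differences all share a sign when groups do not overlap, so that outcome was fixed in advance. With single libraries left out, the log2 fold changes ranged from 1.45 to 1.97, 0.95 to 1.65 and 1.18 to 1.54 in the same order, from -0.65 to 0.02 for the alpha-locus gene and from -1.72 to -0.86 for the plus-strand beta-locus gene. The number of genes called higher ranged from 0 to 3 (0 without lymphoma replicate 2 or 7 or non-lymphoma replicate 6) and the number called lower from 0 to 1 (1 without lymphoma replicate 2). The ratio of the minus-strand beta-locus gene to the alpha-locus gene kept a log2 difference of 1.63 to 2.28, and that of the plus-strand to the minus-strand gene -3.39 to -2.92. Both passed the threshold in every one of these runs. Groups without overlap stay so when a library is left out, so these passes were also fixed in advance. The ratio of the plus-strand gene to the alpha-locus gene passed within the libraries with 5-digit descriptions (-1.18, adjusted p = 0.0397). With a window of 100 kb, 1 neighbour was called lower. With 200 kb, DESeq2 called 9 of the 30 tested neighbours lower, limma voom 3 and the fit with the replicate block 0, against 4 by edgeR without it. The cause of these changes was not tested.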
